A study of Mus musculus with 4 samples.

Results

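The cells described here are fast-spiking parvalbumin (Pvalb) interneurons of the mouse hippocampus. They number 240, which is 5.87% of the 4090 hippocampal GABA cells and a small share of the 26987 cells in the series. They were selected on measured values, counted as unique molecular identifiers (UMIs, tags that count each captured mRNA molecule once). A GABA cell held 200 to 6000 detected genes, under 30% mitochondrial UMIs, at least 2 UMIs of Gad1 and Gad2 together and 0 UMIs of the oligodendrocyte gene Mog. Among these, a member held at least 2 UMIs and 500 CPM of Pvalb (counts per 1e+06 UMIs of the cell), under 3000 CPM of Sst, fewer than 2 UMIs of Th, fewer than 3 of Pthlh and 0 of Crabp1. These 8 genes served only to choose the cells and are given as a description.

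The study sorted TdTomato-labelled cells from frontal cortex and hippocampus of juvenile mice and counted their mRNA in 10x Genomics droplets. It addresses what the NMDA-type glutamate receptor does in interneurons born in the medial ganglionic eminence (MGE), whose progenitors express Nkx2-1. WT cells came from Nkx2-1-Cre:Grin1 wt/wt:TdT+ mice and null cells from Nkx2-1-Cre:Grin1 fl/fl:TdT+ littermates, in which Cre removes floxed Grin1. Grin1 encodes GluN1, the subunit that every NMDA receptor needs. Both genotypes carried Cre and the Ai14 TdTomato reporter, both sexes were used at postnatal day 18 to 20, and tissue was digested with papain in buffers holding tetrodotoxin, APV and actinomycin-D. Cre follows Nkx2-1, so deletion of the floxed Grin1 is directed to all MGE-derived classes from before birth, not to Pvalb cells alone. Animals were pooled within each preparation, so a library is a pool and not an animal. The exons between the loxP sites are not given in the sources used here.

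Pvalb interneurons inhibit pyramidal cells at the soma, the proximal dendrites or the axon initial segment, and help to time theta and gamma rhythms in the hippocampus. They fire long trains of brief action potentials because Kv3 potassium channels repolarise them quickly, and they release GABA in tight synchrony through the calcium sensor synaptotagmin-2, while parvalbumin itself buffers calcium. Hippocampal Pvalb cells comprise basket cells, bistratified cells and axo-axonic cells, which share these traits and differ in the part of the pyramidal cell they contact.

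The hippocampal cells came from 3 WT libraries and 2 null libraries, and replicate numbers are those of the study's methods, matched to libraries by their numbers of barcodes. The 10x kit was of version 2 in replicate 1 and of version 3 in the later replicates, so kit and replicate cannot be told apart. Members per library numbered 6, 97 and 15 in WT replicates 1, 2 and 3 and 8 and 114 in null replicates 1 and 2. Replicate 2 therefore held 211 of the 240 cells (87.9%). Summed over members, the libraries held 39488, 358708 and 179589 UMIs in WT and 132986 and 1976516 in null. The median cell had 6480.5, 3160 and 14539 UMIs in WT and 14333 and 18402 in null, and its detected genes numbered 2926, 1781 and 4595 in WT and 4436 and 5134 in null. A value of 0 in a library allows up to 3 UMIs, which is 76, 8.36 and 16.7 CPM in the WT libraries and 22.6 and 1.52 in the null libraries, for counting error only.

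2 libraries stood apart. WT replicate 2 was the shallowest, and null replicate 2 was the deepest and the only one where the limit of 6000 genes removed cells of this kind, 14 of them. The median mitochondrial share was 2.23, 2.51 and 2.2% in WT and 1.96 and 3.18% in null, highest in that same library. Results that rest on these libraries are given with and without them where the fit allows it. For tests, UMIs were summed over the members of a library, and sums of fewer than 10 cells were left out, so that WT replicate 1 and null replicate 1 are shown but not tested. The genotype test thus set WT replicates 2 and 3 against the lone null replicate 2, which was assumed to vary like the other groups.

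Before the exclusions 365 hippocampal GABA cells reached the Pvalb minimum. Of these, 49 were over the Sst limit, 64 held Pthlh at or over its limit (5, 2 and 5 in the WT and 2 and 50 in the null libraries), 10 Th and 4 Crabp1, and a cell could fail more than 1 limit. The median member held 1846 CPM of Pvalb and the highest 8258. Just inside the minimum, the lowest member stood at 510.4 and the tenth lowest at 559 CPM, while the highest cell outside with at least 2 UMIs stood at 499.9. 59 members lay between 500 and 1000 CPM, and 84 cells with at least 2 UMIs lay between 250 and 500 outside the minimum. The threshold therefore runs through a continuous range of Pvalb levels, and 15 members rest on 2 Pvalb UMIs. Sst was 0 in 134 members and at least 1000 CPM in 28, with 2939 the highest member and 3049.6 the lowest cell removed. No cell was removed as a doublet beyond these limits, and Scrublet scored 1 member as a doublet. The members shared 0 barcodes between libraries, and 19 barcodes occurred in more than 1 hippocampal library among all cells.

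**Figure D1:**
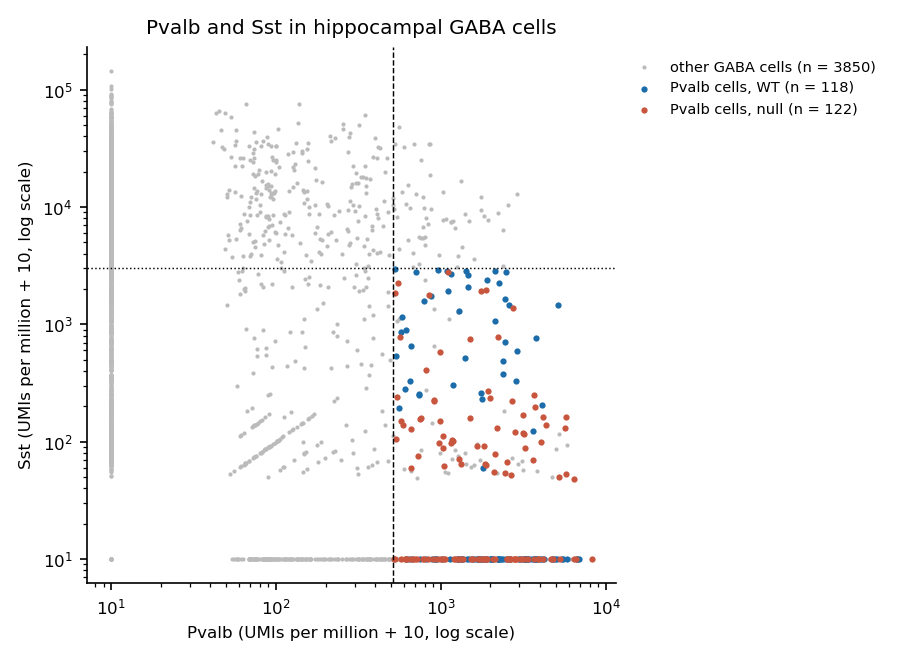
Pvalb against Sst in each hippocampal GABA cell, both in CPM plus 10 on log axes, with the 240 members in colour by genotype and other GABA cells in grey. The dashed line is the Pvalb minimum of 500 and the dotted line the Sst limit of 3000 CPM, and grey cells inside both lines were removed for Pthlh, Th or Crabp1.

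Besides Pvalb, the cells carried the other genes that mark fast-spiking interneurons. Values from here on are CPM of the members summed in each library, in the order of the replicates. Kcnc1, which encodes the Kv3.1 potassium channel (chromosome 7, 46396497 to 46438704 in GRCm38), measured 810.4, 744 and 952 CPM in WT and 534 and 764 in null. Syt2, the calcium sensor synaptotagmin-2 (chromosome 1, 134646677 to 134762593), measured 50.6, 142 and 106 CPM in WT and 82.7 and 190.2 in null. Tac1, the precursor of substance P (chromosome 6, 7554879 to 7565834), measured 962, 474 and 1052 CPM in WT and 2075 and 1142 in null. All 3 were above the floor of a count of 0 in every library other than Syt2 in WT replicate 1, where 2 UMIs were seen. The genotypes overlapped for Kcnc1 and Syt2, while Tac1 was higher in both null libraries than in all 3 WT libraries. Pvalb (chromosome 15, 78191114 to 78206400) measured 1621, 2414 and 1537 CPM in WT and 1023 and 2460.4 in null, as the selection requires.

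Per cell, Kcnc1 was detected in 93.3% of members, against 1.18% of 5330 hippocampal oligodendrocytes, at median depths of 9682 and 5099 UMIs. With each cell thinned to 1000 UMIs the shares were 53.6% and 0.338%. Tac1 was detected in 55.4% of members and 2.89% of oligodendrocytes at those median depths, or 36.4% and 0.816% after thinning. Syt2 was detected in 38.8% of members and 0.075% of oligodendrocytes at the same median depths, or 12.6% and 0.0597% after thinning. Each marker was thus far above its share in oligodendrocytes, a cell type that should lack it. This comparison does not set the members apart from other interneurons.

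**Figure D2:**
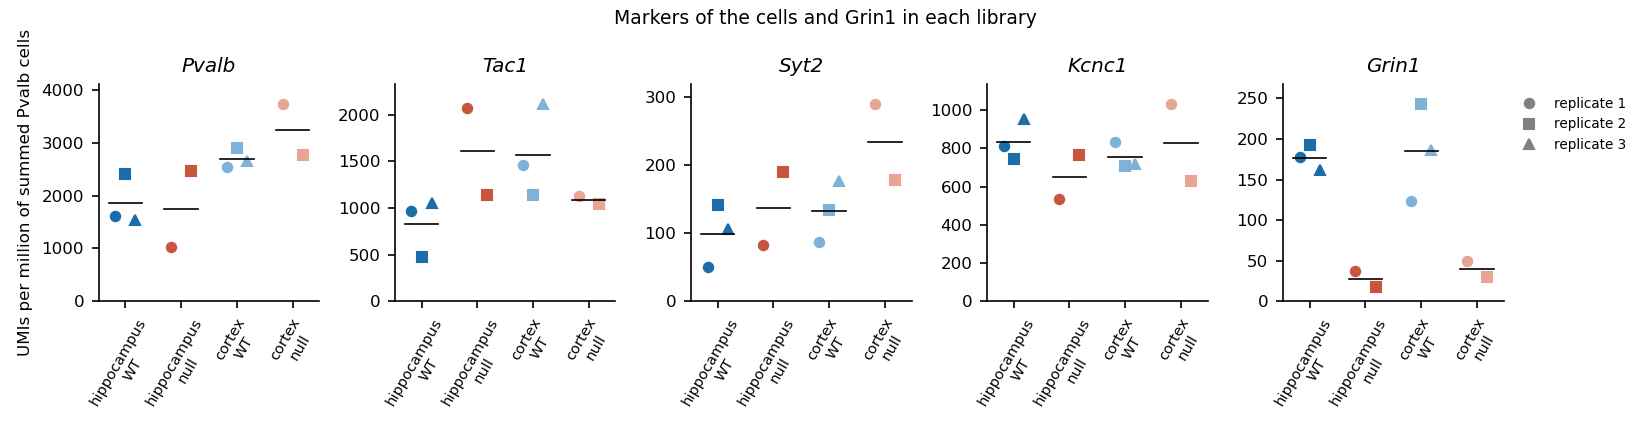
Pvalb, Tac1, Syt2, Kcnc1 and Grin1 in CPM of summed Pvalb cells, 1 point per library with its shape giving the replicate and a line at the group mean. Grin1 sits between 17.7 and 50.2 in null libraries and between 124 and 243 in WT libraries, while Kcnc1 and Syt2 overlap between the genotypes in the hippocampus and Tac1 is higher in both null libraries there.

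Against the Sst cells (Sst at least 3000 CPM) and Lamp5 cells of the same libraries, Syt2 stood out as the most unequal gene not used in the selection, among genes with a mean of at least 50 CPM. Its mean over the 5 libraries was 114 CPM in Pvalb cells, 3.06 in Sst cells and 0.143 in Lamp5 cells. The other leading genes, ranked by the ratio to the higher of the other 2 classes and chosen after their values were seen, include the enzymes Pygm (glycogen phosphorylase) and Me3 (mitochondrial malic enzyme). Lpl (lipoprotein lipase) ranked high too but varied, at 0, 16.7, 156, 60.2 and 63.2 CPM. Pygm measured 101, 75.3, 27.8, 90.2 and 37.9 CPM in the 5 libraries of Pvalb cells (WT, then null), against a mean of 6.71 in Sst cells. The mean of Pygm in Lamp5 cells was 7.09, and all 5 libraries held it above both other classes. Among potassium channel partners, Kcnip2, which binds Kv4 channels, measured 127, 86.4, 239, 135 and 217 CPM in Pvalb cells. In Sst cells it measured 23, 12.2, 26.8, 24.4 and 19.3, a mean of 21.1, and in Lamp5 cells the mean was higher, at 29.2. Kcnab3, a Kv beta subunit, averaged 134 in Pvalb cells and 35.7 in Sst cells. Esrrg, a nuclear receptor that drives oxidative metabolism, averaged 112 CPM in Pvalb cells and 20.8 in Sst cells, and the guidance ligand Slit2 85.7 and 16.4. These class differences were not tested, since Pvalb and Sst levels defined the classes.

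The members varied among themselves along genes known from the subtypes of Pvalb cell. Tac1 is common to basket and bistratified cells, Sst, Npy and Rbp4 (retinol-binding protein 4) occur in bistratified and Sst cells, and Cck encodes cholecystokinin. Rbp4 was detected in 64.7% of members with a Tac1 UMI and in 31.8% of those without, both together in 86 cells. The same order held within WT replicate 2 (43.9% and 21.4%) and null replicate 2 (72.6% and 43.9%). Tac1 and Sst had no common order. Sst was detected in 39% of Tac1-positive and 26.8% of other members in WT replicate 2, but in 45.2% and 61% in null replicate 2. Rbp4 differed little with Sst, at 32.3% of Sst-positive and 30.3% of other members in WT replicate 2 and 62.1% and 62.5% in null replicate 2. Over all members Rbp4 was detected in 50%, against 1.16% of oligodendrocytes, at median depths of 9682 and 5099 UMIs, and in 25.5% and 0.219% after thinning.

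Syt2 kept the same order within WT replicate 2 and null replicate 2 for Npy and for Rbp4, but not for Sst. Npy was detected in 29% of members with a Syt2 UMI and in 42.9% of those without, and in 15% and 28.6% within WT replicate 2 and 35.5% and 61.5% within null replicate 2. Rbp4 went the other way, in 73.1% of members with a Syt2 UMI and 35.4% of those without, 45% and 27.3% within WT replicate 2 and 79% and 42.3% within null replicate 2. Sst was mixed, at 10% and 37.7% within WT replicate 2 but 53.2% and 48.1% within null replicate 2. Npy as a whole was detected in 37.5% of members and 8.57% of oligodendrocytes at median depths of 9682 and 5099 UMIs, or 17.6% and 1.63% after thinning. Tac1 and Cck had no common order. Cck was detected in 29.3% of Tac1-positive and 41.1% of other members in WT replicate 2, but in 76.7% and 51.2% in null replicate 2. Deeper cells detect more genes, so these shares are descriptions of cells within a library and carry no test. Cck itself was detected in 51.2% of members and 1.69% of oligodendrocytes, at median depths of 9682 and 5099 UMIs, or 27.6% and 0.358% after thinning.

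How large a part of the sorted GABA cells the Pvalb cells made up was compared between genotypes and regions. The share was 1.33, 8.28 and 2.03% in the WT hippocampal libraries and 4.85 and 7.29% in the null ones. WT replicate 2 was the highest and the null libraries fell between it and the other WT libraries, so the groups overlapped. The 95% Wilson intervals were 0.611 to 2.87, 6.83 to 9.99 and 1.23 to 3.32% in WT and 2.48 to 9.27 and 6.11 to 8.69% in null. The group means were 3.88% ± 3.82 (SD, n = 3) in WT and 6.07% ± 1.73 (SD, n = 2) in null, a difference of 2.19 percentage points (p = 0.6 by a two-sided exact permutation test, which cannot go below 0.1). The alternatives gave differences from 0.591 points with a Pvalb minimum of 1000 CPM to 4.39 without WT replicate 2, so its size is not settled. Within replicates the null share was higher in replicate 1 and lower in replicate 2. With cells thinned to 1000 UMIs the null share was higher in both. It was then 6.03% against 3.76% in replicate 1 and 10.6% against 9.08% in replicate 2. Thinned members needed 1 Pvalb UMI, and the limits of 2 Th and 3 Pthlh UMIs were kept, so the rule changed too. Before thinning the Pthlh limit removed 2 of 116 Pvalb-positive cells in WT replicate 2 and 50 of 199 in null replicate 2. Depth and the changed rule cannot be told apart in the order of replicate 2.

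WT cortex held a larger share of Pvalb cells than WT hippocampus in all 3 replicates. The cortical WT libraries, sorted by the same rule, had 12, 17 and 15.4%, all above the hippocampal WT libraries. Null cortex had 15.7 and 5.54% in replicates 1 and 2, above null hippocampus in replicate 1 and below it in replicate 2, and this was not tested. After thinning to 1000 UMIs null cortex was above null hippocampus in both replicates, at 23.6% against 6.03% and 16.3% against 10.6%. The rule for thinned cells differed as given above. In null cortex replicate 2 it kept 100 cells and the full rule 55, where the Pthlh limit removed 64 of 150 Pvalb-positive cells. Depth and the changed rule cannot be told apart here either. The WT difference of means, hippocampus minus cortex, was -10.9 percentage points (p = 0.1 by the same exact permutation test, its lowest possible value with n = 3 and 3). With cells thinned to 1000 UMIs it was -15.1 percentage points (exact permutation p = 0.1), and the genotype difference 2.91 (exact permutation p = 0.4). As a share of all cells that passed the cell filter the regional difference was -6.93 percentage points (exact permutation p = 0.1). The shares describe the sorted cells, not the tissue.

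Loss of Grin1 in these cells was read out first on Grin1 itself, which also checks the labels. Grin1 (chromosome 2, 25291181 to 25319187) measured 177, 192 and 161 CPM in WT and 37.6 and 17.7 in null. Both null libraries lay far below all 3 WT libraries, without overlap, as the labels have it. The fitted log2 difference, null minus WT, was -3.36 ± 0.55 (SE, edgeR, adjusted p = 0.117), and within replicates 1 and 2 the log2 differences were -2.21 and -3.37. Adjusted over 9650 genes with a lone null library in the test, Grin1 thus missed the threshold of 0.05. It had the smallest p of all genes tested. It passed with a replicate block (adjusted p = 0.00664), with DESeq2 (2.6e-05), with only the groups compared (0.0122), with no low-count filter (3.5e-05), with a Pvalb minimum of 1000 CPM (0.022) and with no minimum of cells (0.0185, chosen after seeing the data). Across all alternatives its adjusted p ran from 2.6e-05 to 0.234.

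Across genes, the count past an adjusted p of 0.05 in edgeR was 0 (0% of those tested), with 0% higher and 0% lower. At an unadjusted p under 0.05 there were 486 genes (5.04%), 207 higher (2.15%) and 279 lower (2.89%) in null cells. DESeq2 called 1 gene, Grin1. With replicate as a block edgeR called 5 genes, named after their values were seen as Grin1, Calb1, Mir6236, Lars2 and Gm22714. No gene group named here therefore passed the genotype test, and the values that follow are descriptions.

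The partners of GluN1 within the receptor came next. Grin2b, the GluN2B subunit, measured 405, 917 and 439.9 CPM in WT and 474 and 408 in null, with both null libraries inside the WT range. Grin2a, the GluN2A subunit of more mature receptors, measured 50.6, 25.1 and 50.1 CPM in WT and 15 and 9.11 in null, and both null libraries lay below all WT libraries (log2 difference -1.96 ± 0.67, edgeR adjusted p = 0.924). Within replicates 1 and 2 the Grin2a log2 differences were -1.69 and -1.37, but its counts are low and replicate 1 was not in the test. Grin2d measured 127, 41.8 and 83.5 CPM in WT and 82.7 and 56.7 in null. Grin3a measured 25.3, 44.6 and 39 CPM in WT and 37.6 and 17.7 in null, and the genotypes overlapped for both subunits. Of the 5 NMDA receptor genes tested 2, Grin2a and the deleted gene Grin1 itself, were lower at an unadjusted p under 0.05, beside 2.89% of all genes, and the median log2 difference was -1.30, beside -0.01 over all genes.

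AMPA receptor subunits, which carry fast excitation onto these cells, were next. Gria1, the GluA1 subunit, measured 1722, 1154 and 1186 CPM in WT and 1135 and 854 in null, and both null libraries lay below all WT libraries (log2 difference -0.48 ± 0.39, edgeR adjusted p = 0.934). Gria2, the GluA2 subunit that blocks calcium entry, measured 633, 519 and 356 CPM in WT and 361 and 453 in null, with the null libraries among the WT ones. Of 20 AMPA and kainate receptor genes and auxiliaries tested 0 passed (median log2 difference -0.20), and of 16 GABA receptor genes likewise 0 (median 0.03).

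The channels of fast spiking were present in both genotypes, and the channels named here overlapped between them. Kcnc2, the Kv3.2 channel, measured 1038, 438 and 507 CPM in WT and 639 and 786 in null, with overlap. Kcna1, the Kv1.1 channel of axons, measured 329, 454 and 401 CPM in WT and 331 and 525 in null. Scn1a, the main sodium channel of fast-spiking cells, measured 431, 638 and 512 CPM in WT and 399 and 531 in null. Null lay within or just beyond the WT range for both genes. The median log2 difference was 0.28 over 19 potassium channel genes and 0.09 over 12 sodium channel genes, and 0 passed in either list. Kcnc1 had a log2 difference of -0.17 ± 0.42, Syt2 of 0.55 ± 0.48 and Tac1 of 0.59 ± 0.47, none past the threshold (edgeR adjusted p = 0.978, 0.934 and 0.934). Within replicates 1 and 2 the Tac1 log2 differences were 1.11 and 1.27, with null above WT in both.

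The genes of release and identity named here overlapped between genotypes. Syt1, the general calcium sensor of release, measured 2760.3, 4828 and 2444 CPM in WT and 2872 and 2546 in null, and Cplx1, a complexin that regulates vesicle fusion, 1595, 2587 and 941 CPM in WT and 1519 and 1307 in null. WT replicate 2 was the highest library for both genes. Mef2c, a transcription factor of maturing Pvalb cells, measured 1469, 1299 and 980.0 CPM in WT and 1331 and 1089.8 in null. Satb1, which acts in MGE interneuron maturation, measured 379.9, 298 and 507 CPM in WT and 399 and 292 in null. For these 2 genes too at least 1 null library lay within the WT range. The counts past the threshold were 0 of 20 release genes (median log2 difference -0.11), 0 of 6 GABA synthesis and transport genes (0.39) and 0 of 26 MGE transcription factors (-0.12).

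The remaining groups also held 0 genes past the threshold for genotype. Their median log2 differences were 0.25 for 17 energy genes, -0.29 for 8 neurofilament and cytoskeleton genes, -0.25 for 34 synaptic adhesion genes and -0.14 for 13 activity-regulated genes. For 8 perineuronal net genes the median was 0.16, or 0.00 with Spp1, which is at 0 in the WT libraries, at its bound. It was 0.38 for 7 neuropeptide genes, -0.09 for 10 calcium-binding genes, 0.52 for 8 basket cell genes, 0.25 for 5 bistratified cell genes and -0.26 for 6 axo-axonic cell genes. Stress and dissociation genes had a median of -0.30 over 8 tested.

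The other genes with the smallest p for genotype, none past the threshold, include on the higher side Calb1, the calcium buffer calbindin (chromosome 4, 15881264 to 15908064). Calb1 measured 456, 117 and 11.1 CPM in WT and 218 and 685 in null. Null replicate 2 was the highest library and WT replicate 3 the lowest, but WT replicate 1 lay above null replicate 1, so the groups overlapped once the untested libraries are counted. The log2 difference was 3.18 ± 0.73 (edgeR adjusted p = 0.924), and within replicates 1 and 2 it was -1.06 and 2.54, with opposite signs. Dnttip1, a partner of histone deacetylases, measured 25.3, 8.36 and 11.1 CPM in WT and 67.7 and 47.6 in null, with both null libraries above all WT libraries (log2 difference 2.29 ± 0.59, adjusted p = 0.924).

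Among the 5 genes with the smallest p on the higher side, Htr2c, Kitl and Rce1 stood at 0 in the tested WT libraries. Htr2c, the serotonin 2C receptor, measured 0, 0 and 0 CPM in WT and 15 and 27.8 in null, so that UMIs occurred in null libraries alone, and the level in null replicate 2 was at least 4.99-fold higher, against a floor of 3 UMIs over WT replicates 2 and 3. Kitl, the ligand of the Kit receptor, measured 0, 0 and 0 CPM in WT and 0 and 25.8 in null (at least 4.63-fold), with UMIs in null replicate 2 only. Rce1, a protease that trims prenylated proteins, measured 25.3, 0 and 0 CPM in WT and 22.6 and 24.3 in null (at least 4.36-fold), and WT replicate 1, outside the test, had a level like that of the null libraries, from 1 UMI. The edgeR adjusted p was 0.924 for each of the 3.

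On the lower side the genes after Grin1 were Palm2, A230006K03Rik, Gmnn and Ddx23. Palm2, of the paralemmin family, measured 25.3, 75.3 and 11.1 CPM in WT and 7.52 and 4.55 in null. A230006K03Rik, a long non-coding RNA, measured 25.3, 55.8 and 11.1 CPM in WT and 15 and 2.02 in null. Ddx23, a helicase of the spliceosome, measured 0, 41.8 and 16.7 CPM in WT and 0 and 3.04 in null. In these 3 genes WT replicate 2, the shallowest library, was the highest, and for the last 2 the genotypes overlapped over all 5 libraries. Gmnn, an inhibitor of DNA replication licensing, measured 50.6, 22.3 and 44.5 CPM in WT and 0 and 3.54 in null, with every WT library above both null libraries. The log2 differences were -3.46, -4.22, -3.12 and -3.41, each with an edgeR adjusted p of 0.924.

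Whether Pvalb cells of the hippocampus carry a regional profile was tested against the 92, 293 and 345 cells that the same rule kept in the WT cortical libraries. Rgs10, Rgs8 and Hapln1 were among the genes higher in hippocampus, and Cartpt, Ostn and Htr2c among those lower there. 51 genes passed (0.528% of those tested), 42 higher (0.435%) and 9 lower (0.0933%) in hippocampus, and in 50 of them (0.518%) the tested libraries of the regions did not overlap, the exception being Mxra7. At an unadjusted p under 0.05 there were 726 genes (7.52%), 4.23% higher and 3.3% lower. The test used WT hippocampal replicates 2 and 3 and the 3 WT cortical libraries, and WT hippocampal replicate 1 is shown beside them, where levels below its floor come from 1 or 2 UMIs and add little to statements on every library. The count depended on single libraries. It was 10 without WT hippocampal replicate 2, of which 9 were among the 51, and 101 without replicate 3 (43 shared). It was 15 without cortical replicate 3 (15 shared) and 77 without cortical replicate 2 (51 shared). Rgs8, Rgs10 and Col25a1 passed under all 16 alternatives.

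Rgs10, Rgs8, Dgkg, Rxfp3 and Pde3a passed as higher in hippocampus and are shown together only for ease of reading. Rgs10, which ends G-protein signals by speeding GTP hydrolysis (chromosome 7, 128373621 to 128418758), measured 279, 248 and 568 CPM in WT hippocampus and 20.2, 18.2 and 25.4 in WT cortex. Its relative Rgs8 (chromosome 1, 153653025 to 153700323) measured 76, 53 and 50.1 CPM in hippocampus and 0, 1.25 and 1.36 in cortex. All hippocampal libraries lay above all cortical ones for both genes, and the log2 differences were 4.15 ± 0.46 (edgeR adjusted p = 5.6e-04) and 5.37 ± 0.62 (adjusted p = 5.6e-04). Within replicates 1, 2 and 3 they were 3.72, 3.70 and 4.43 for Rgs10, and 4.58 and 4.43 within the last 2 for Rgs8, which was at 0 in cortical replicate 1. Dgkg, a kinase that removes diacylglycerol, measured 177, 248 and 167 CPM in hippocampus and 34.2, 55.8 and 29.2 in cortex (log2 difference 2.40 ± 0.37, adjusted p = 0.00462). Rxfp3, the receptor of the peptide relaxin-3, measured 101, 55.8 and 33.4 CPM in hippocampus and 0, 3.76 and 0.273 in cortex (log2 difference 5.13 ± 0.77, adjusted p = 0.00462). Pde3a, which breaks down cyclic AMP, measured 50.6, 27.9 and 27.8 CPM in hippocampus and 0, 0.627 and 0 in cortex (log2 difference 6.65 ± 1.02, adjusted p = 0.00462). Each of these 3 was higher in all hippocampal libraries. Without hippocampal replicate 2, Dgkg, Rxfp3 and Pde3a did not pass, with log2 differences of 1.997, 4.57 and 6.63 and adjusted p-values of 0.136, 0.271 and 0.114. Without cortical replicate 3, Dgkg did not pass, with a log2 difference of 2.20 and an adjusted p of 0.0544. Calls were also lost for Rxfp3 with DESeq2. Over all alternatives the adjusted p ran from 3.0e-07 to 0.136 for Dgkg, 5.1e-11 to 0.271 for Rxfp3 and 1.2e-08 to 0.114 for Pde3a.

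In the list of synaptic adhesion genes and organizers, the longest of all, Cbln4, Nrp1 and Lrrtm1 passed as higher and Sema3e as lower. Cbln4, a secreted organizer that binds neurexins, measured 101, 33.5 and 22.3 CPM in hippocampus and 0, 0.627 and 0.546 in cortex. Nrp1, a receptor for class 3 semaphorins (chromosome 8, 128358604 to 128503363), measured 177, 44.6 and 27.8 CPM in hippocampus and 2.53, 0.627 and 0.273 in cortex. Lrrtm1, a neurexin-binding synaptic adhesion protein, measured 50.6, 78.1 and 61.3 CPM in hippocampus and 19, 13.2 and 7.1 in cortex. For all 3 genes every hippocampal library was above every cortical one, and the log2 differences were 5.60 ± 0.86, 5.53 ± 0.84 and 2.58 ± 0.48 (edgeR adjusted p = 0.00462, 0.00462 and 0.0153). Sema3e, a secreted semaphorin, had the opposite order, 0, 0 and 0 CPM in hippocampus and 27.8, 33.9 and 24.6 in cortex, where its level was at least 4.92-fold higher, against a floor of 3 UMIs over hippocampal replicates 2 and 3 (adjusted p = 0.0182). Of the 34 adhesion genes tested, 3 passed higher and 1 lower, 12 were higher at an unadjusted p under 0.05 (beside 0.435%, 0.0933% and 4.23% of all genes), and the median log2 difference was 0.50, also with Sema3e at its bound, beside -0.02 over all genes. Without hippocampal replicate 2, Cbln4, Nrp1, Lrrtm1 and Sema3e did not pass, with log2 differences of 5.17, 5.03 and 2.30 for Cbln4, Nrp1 and Lrrtm1 and adjusted p-values of 0.271, 0.271, 0.443 and 0.349. Without cortical replicate 3, Lrrtm1 and Sema3e did not pass, with a log2 difference of 2.16 for Lrrtm1 and adjusted p-values of 0.133 and 0.0544. Calls were also lost for Sema3e with DESeq2, for Sema3e with a Pvalb minimum of 1000 CPM and for Sema3e with only the 2 regional groups in the fit. Over all alternatives the adjusted p ran from 1.8e-07 to 0.271 for Cbln4, 3.2e-09 to 0.271 for Nrp1, 2.5e-05 to 0.443 for Lrrtm1 and 4.3e-04 to 0.349 for Sema3e.

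Hapln1, Col25a1, Timp3, Wnt5a and Cd59a passed as higher in hippocampus too, again without a list or test of them as a group. Hapln1, the link protein that holds hyaluronan and proteoglycans together in perineuronal nets, measured 101, 231 and 217 CPM in hippocampus and 27.8, 46.4 and 56.2 in cortex (log2 difference 2.30 ± 0.37, edgeR adjusted p = 0.00588). It was the only one of 8 net genes tested to pass, beside 0.435% of all genes passing higher (median log2 difference -0.03, or 0.22 with Spp1, which is at 0 in hippocampus, at its bound). Acan, the aggrecan core of nets, had too few UMIs for the test, at 0, 0 and 0 CPM in hippocampus and 2.53, 8.78 and 9.83 in cortex. Col25a1, a membrane-bound collagen of neurons, measured 25.3, 123 and 139 CPM in hippocampus and 3.79, 14.4 and 13.6 in cortex (log2 difference 3.43 ± 0.44, adjusted p = 0.00127). Timp3, an inhibitor of matrix proteases, measured 25.3, 69.7 and 55.7 CPM in hippocampus and 2.53, 6.9 and 3.82 in cortex (log2 difference 3.77 ± 0.49, adjusted p = 0.00127). Each hippocampal library was above the cortical libraries for Hapln1, and for Timp3 and Col25a1 as well, but there from 1 UMI in replicate 1. Wnt5a, a secreted Wnt ligand, measured 50.6, 78.1 and 16.7 CPM in hippocampus and 0, 3.76 and 1.09 in cortex. Cd59a, an inhibitor of complement lysis, measured 177, 86.4 and 22.3 CPM in hippocampus and 1.26, 5.02 and 2.18 in cortex, and both were higher in every hippocampal library (log2 differences 4.87 ± 0.76 and 4.33 ± 0.65, adjusted p = 0.00462 and 0.00462). Without hippocampal replicate 2, Hapln1, Timp3, Wnt5a and Cd59a did not pass, with log2 differences of 2.18, 3.50, 3.14 and 2.82 and adjusted p-values of 0.0942, 0.114, 0.914 and 0.853. Over all alternatives the adjusted p ran from 1.1e-06 to 0.0942 for Hapln1, 4.5e-09 to 0.114 for Timp3, 5.1e-11 to 0.914 for Wnt5a and 5.1e-11 to 0.853 for Cd59a.

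2 genes linked to axo-axonic cells, Fgf13 and C1ql1, were also higher. The Pthlh limit is in UMIs and so depends on depth. It was met by 5, 2 and 5 of 13, 116 and 26 Pvalb-positive cells in the WT hippocampal libraries and 16, 19 and 17 of 151, 350 and 402 in the WT cortical ones, and its part in these calls was not tested. Fgf13, an intracellular partner of sodium channels, measured 405, 379 and 117 CPM in hippocampus and 74.6, 65.3 and 54.6 in cortex, and C1ql1, a secreted ligand of adhesion GPCRs, 25.3, 61.3 and 117 CPM in hippocampus and 2.53, 8.78 and 6.28 in cortex. Hippocampal libraries lay above cortical ones, for C1ql1 from 1 UMI in replicate 1, and the log2 differences were 1.9997 ± 0.41 (edgeR adjusted p = 0.0299) and 3.69 ± 0.59 (adjusted p = 0.00534). Unc5b, a netrin receptor, measured 50.6, 50.2 and 16.7 CPM in hippocampus and 0, 5.65 and 1.09 in cortex and did not pass (log2 difference 3.94 ± 0.87, adjusted p = 0.0526). 2 of 6 axo-axonic genes tested passed, beside 0.435% of all genes passing higher, and the median log2 difference was 2.52, beside -0.02 over all genes. Without hippocampal replicate 2, Fgf13 did not pass, with a log2 difference of 0.78 and an adjusted p of 0.964. Without cortical replicate 3, Fgf13 did not pass, with a log2 difference of 1.88 and an adjusted p of 0.206. Calls were also lost for C1ql1 with DESeq2 and for Fgf13 with only the 2 regional groups in the fit. Over all alternatives the adjusted p ran from 3.1e-05 to 0.964 for Fgf13 and 5.1e-11 to 0.32 for C1ql1. Basket cell genes had 0 calls among 8 (median -0.07) and bistratified cell genes 0 among 5 (median 0.06).

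Single members of other groups passed. Necab1, a neuronal calcium-binding protein, measured 50.6, 114 and 89.1 CPM in hippocampus and 12.6, 33.3 and 22.4 in cortex (log2 difference 2.12 ± 0.39, edgeR adjusted p = 0.0139), as 1 of 10 calcium-binding genes tested (median -0.01). Nefm, the medium neurofilament chain, measured 25.3, 109 and 128 CPM in hippocampus and 16.4, 40.8 and 25.1 in cortex (log2 difference 2.04 ± 0.41, adjusted p = 0.025), as 1 of 8 cytoskeleton genes (median 0.19), beside 0.435% of all genes passing higher and a median of -0.02. Hippocampal libraries were above cortical ones for Necab1, and for Nefm WT replicate 1, which was outside the test, fell within the cortical range. Ddit4l, an inhibitor of mTORC1 signalling, measured 101, 33.5 and 55.7 CPM in hippocampus and 8.85, 1.88 and 1.36 in cortex (log2 difference 3.83 ± 0.72, adjusted p = 0.0157). Spats2l measured 101, 215 and 245 CPM in hippocampus and 39.2, 64 and 37.9 in cortex (log2 difference 2.26 ± 0.35, adjusted p = 0.00462). Both were higher in every hippocampal library. Without hippocampal replicate 2, Necab1, Nefm and Ddit4l did not pass, with log2 differences of 1.83, 2.101 and 4.15 and adjusted p-values of 0.36, 0.23 and 0.136. Without cortical replicate 3, Necab1, Nefm, Ddit4l and Spats2l did not pass, with log2 differences of 2.102, 1.98, 3.17 and 2.12 and adjusted p-values of 0.103, 0.172, 0.112 and 0.0547. Without hippocampal replicate 3, Nefm and Ddit4l did not pass, with log2 differences of 1.99 and 3.54 and adjusted p-values of 0.0524 and 0.0679. Calls were also lost for Nefm with a Pvalb minimum of 1000 CPM and for Ddit4l with only the 2 regional groups in the fit. Over all alternatives the adjusted p ran from 1.9e-04 to 0.36 for Necab1, 3.1e-04 to 0.23 for Nefm, 2.6e-06 to 0.136 for Ddit4l and 2.3e-06 to 0.0547 for Spats2l. Ddit4l, Nrp1 and Rxfp3 belong to a list of 9 region genes that was drawn up from these data, so its 3 calls and median of 2.86 are no independent evidence.

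**Figure D3:**
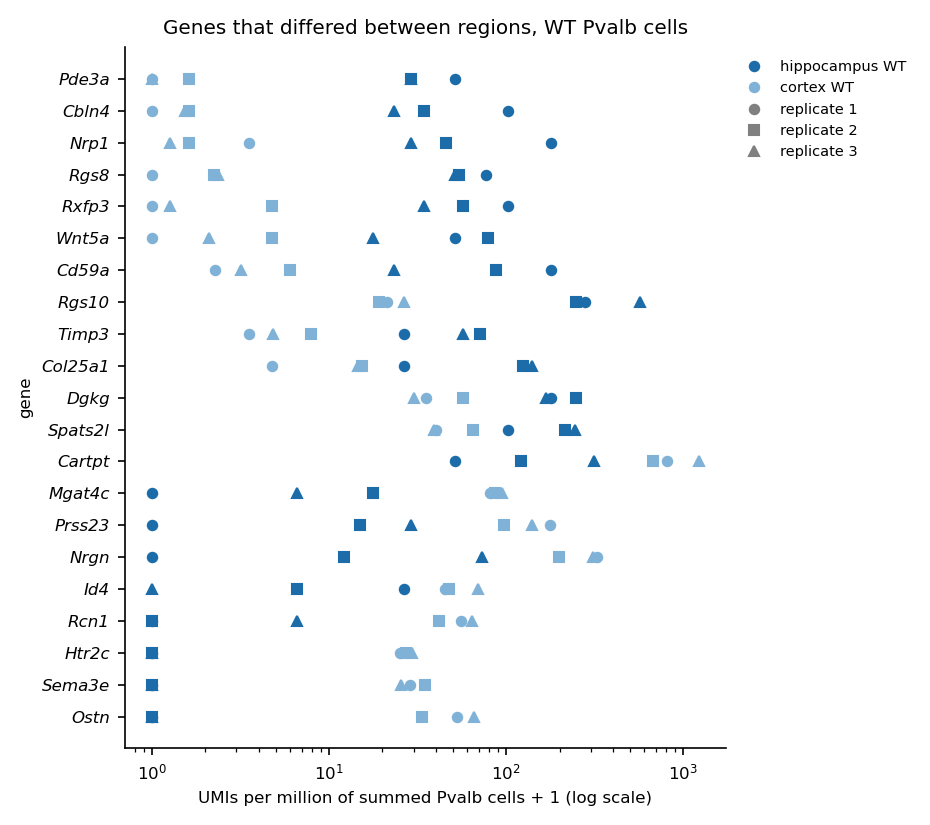
Levels in CPM plus 1 (log axis) of 21 genes that passed between regions, 1 point per WT library of summed Pvalb cells, dark for hippocampus and light for cortex, with shapes for replicates. The 12 genes at the top lie higher in hippocampus and the 9 at the bottom higher in cortex, where Ostn, Sema3e and Htr2c are at 0 in all hippocampal WT libraries.

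The 9 genes lower in hippocampus include secreted peptides and a serotonin receptor. Cartpt, the precursor of CART peptides, measured 50.6, 119.9 and 312 CPM in hippocampus and 807, 674 and 1222 in cortex, with every cortical library above every hippocampal one (log2 difference -2.17 ± 0.42, edgeR adjusted p = 0.0193, within-replicate values -3.97, -2.48 and -1.97). Ostn, the secreted peptide osteocrin, measured 0, 0 and 0 CPM in hippocampus and 51.9, 32.6 and 64.7 in cortex, and Htr2c, the serotonin 2C receptor, 0, 0 and 0 CPM in hippocampus and 24, 26.4 and 28.4 in cortex. Both were at 0 in all hippocampal WT libraries, and the cortical level was at least 9.79-fold and 4.9-fold higher, against a floor of 3 UMIs over hippocampal replicates 2 and 3 (adjusted p = 0.0149 and 0.0344). Id4, an inhibitor of helix-loop-helix transcription factors, measured 25.3, 5.58 and 0 CPM in hippocampus and 44.3, 46.4 and 68.2 in cortex (log2 difference -3.85 ± 0.72, adjusted p = 0.0153). Rcn1, a calcium-binding protein of the endoplasmic reticulum, measured 0, 0 and 5.57 CPM in hippocampus and 54.4, 40.8 and 63 in cortex (log2 difference -4.76 ± 0.84, adjusted p = 0.0114), and the serine protease gene Prss23 0, 13.9 and 27.8 CPM in hippocampus and 176, 96.6 and 138 in cortex (log2 difference -2.85 ± 0.52, adjusted p = 0.0135). Cortical libraries lay above hippocampal ones for each of these 3 genes and for Mgat4c, a glycosyltransferase gene at 0, 16.7 and 5.57 CPM in hippocampus and 79.7, 86 and 93.3 in cortex (log2 difference -2.77 ± 0.49, adjusted p = 0.0125).

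Without hippocampal WT replicate 2 or without cortical WT replicate 3 the count of lower genes was 0 in each case, so each of the 9 calls rests on both of those libraries. Nrgn, a calmodulin-binding protein abundant in pyramidal cells, measured 0, 11.2 and 72.4 CPM in hippocampus and 323, 198 and 307 in cortex (log2 difference -3.01 ± 0.59, edgeR adjusted p = 0.0224), higher in every cortical library. Without hippocampal replicate 2, Cartpt, Rcn1, Mgat4c, Prss23, Id4, Nrgn, Ostn, Sema3e and Htr2c did not pass, with log2 differences of -1.63, -3.32, -4.03, -2.38 and -2.02 for Cartpt, Rcn1, Mgat4c, Prss23 and Nrgn and adjusted p-values of 0.338, 0.349, 0.1, 0.338, 0.151, 0.379, 0.295, 0.349 and 0.516. Without cortical replicate 3, Cartpt, Rcn1, Mgat4c, Prss23, Id4, Nrgn, Ostn, Sema3e and Htr2c did not pass, with log2 differences of -1.86, -4.54, -2.69, -2.83, -3.58 and -2.89 for Cartpt, Rcn1, Mgat4c, Prss23, Id4 and Nrgn and adjusted p-values of 0.109, 0.0544, 0.0554, 0.0544, 0.0716, 0.0716, 0.0554, 0.0544 and 0.121. Without hippocampal replicate 3, Mgat4c, Id4 and Htr2c did not pass, with log2 differences of -2.33 and -3.23 for Mgat4c and Id4 and adjusted p-values of 0.0501, 0.0524 and 0.0637. Calls were also lost for Rcn1, Id4, Sema3e and Htr2c with DESeq2, for Id4, Sema3e and Htr2c with a Pvalb minimum of 1000 CPM and for Cartpt, Nrgn, Sema3e and Htr2c with only the 2 regional groups in the fit. Over all alternatives the adjusted p ran from 6.1e-07 to 0.338 for Cartpt, 8.8e-06 to 0.349 for Rcn1, 6.6e-05 to 0.1 for Mgat4c, 2.6e-06 to 0.338 for Prss23, 4.4e-05 to 0.151 for Id4, 6.6e-09 to 0.379 for Nrgn, 8.4e-07 to 0.295 for Ostn, 4.3e-04 to 0.349 for Sema3e and 7.9e-04 to 0.516 for Htr2c.

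The core of the fast-spiking profile did not pass between regions. Kcnc1 measured 834, 705 and 719 CPM in WT cortex, Syt2 87.3, 134 and 177, Tac1 1458, 1136 and 2111 and Grin1 124, 243 and 187, beside the hippocampal values above. The regions overlapped for Kcnc1, Syt2 and Grin1, while Tac1 was higher in every cortical library than in the hippocampal ones (log2 difference -1.11 ± 0.37, edgeR adjusted p = 0.362). Within replicates 1, 2 and 3 the Tac1 log2 differences were -0.60, -1.26 and -1.003. The count past the threshold was 0 of 19 potassium channel genes (median log2 difference 0.06), 0 of 20 release genes (0.05), 0 of 6 GABA synthesis and transport genes (-0.05), 0 of 26 MGE transcription factors (0.05) and 0 of 16 GABA receptor genes (-0.05). Of the sodium channel genes Fgf13 alone passed among 12 (median -0.13), beside 0.435% of all genes passing higher.

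Excitatory receptors, peptides and energy genes had 0 of 20, 0 of 5, 0 of 7 and 0 of 17 past the threshold, in the order of AMPA and kainate, NMDA, peptide and energy genes. Their median log2 differences were 0.44, 0.51, -0.67 and -0.15. Gria1, the GluA1 subunit, measured 1722, 1154 and 1186 CPM in hippocampus and 452, 558 and 474 in cortex, higher in every hippocampal library, and came close to the threshold (log2 difference 1.21 ± 0.28, edgeR adjusted p = 0.0701). Tcap, a gene of the sarcomere protein telethonin, measured 0, 78.1 and 123 CPM in hippocampus and 345, 296 and 299 in cortex, lower in every hippocampal library (log2 difference -1.72 ± 0.38, adjusted p = 0.0527). Atp1b1, a subunit of the sodium pump, measured 3723, 3596 and 4594 CPM in hippocampus and 4451, 4329 and 4441 in cortex, with overlap. Activity-regulated genes had 0 of 13 (median -0.03) and stress and dissociation genes 0 of 8 (median 0.31).

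The other genes that passed, chosen by their place beyond the first 12 and after their values were seen, include Slc17a8, the vesicular glutamate transporter VGLUT3, with 76, 27.9 and 27.8 CPM in hippocampus and 0, 1.25 and 0.273 in cortex. Epha4, an ephrin receptor, measured 0, 75.3 and 83.5 CPM in hippocampus and 24, 25.1 and 20.2 in cortex, and Nrp2, the relative of Nrp1, 76, 39 and 27.8 CPM in hippocampus and 1.26, 5.02 and 1.64 in cortex. Nrp2 and Slc17a8 were higher in every hippocampal library, and Epha4 in the tested ones. Ttr, a gene of choroid plexus, measured 0, 8.36 and 66.8 CPM in hippocampus and 0, 0.627 and 0 in cortex, and 1.77, 0.814 and 319.7 CPM in Sst cells of the WT hippocampus, highest in replicate 3 in both classes. Slc17a8, Epha4 and Nrp2 did not pass without hippocampal replicate 2, with log2 differences of 5.44, 1.78 and 3.28 and adjusted p-values of 0.271, 0.292 and 0.686. Without cortical replicate 3, Slc17a8, Epha4, Nrp2 and Ttr did not pass, with log2 differences of 4.88, 1.67, 3.23 and 5.89 and adjusted p-values of 0.121, 0.206, 0.177 and 0.238. Without cortical replicate 1, Ttr did not pass, with a log2 difference of 6.72 and an adjusted p of 0.0679, and without hippocampal replicate 3 it had too few UMIs for the test. The adjusted p over all alternatives ran from 2.6e-06 to 0.271 for Slc17a8, 0.0142 to 0.292 for Epha4, 5.8e-05 to 0.686 for Nrp2 and 7.9e-07 to 0.238 for Ttr. The rest were Khdrbs2, Trpc5, Rph3a, Ap1s2, Olfm3, Fabp5, Shisa6, Vstm2a, Cacna2d3, Igfbp4, Stk32a, Mxra7, Glul, Lamb1, Synpr, Sgcz, Chst2, Fstl5 and Mir99ahg, of which only Fabp5 passed whichever single library was left out.

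Immediate-early genes, which switch on with neuronal activity, differed between libraries of the same group. Fos measured 25.3, 307 and 16.7 CPM in WT hippocampus, 15 and 100.2 in null hippocampus, 12.6, 202 and 19.4 in WT cortex and 16.7 and 16.2 in null cortex. Egr1 measured 0, 137 and 0 CPM in WT and 0 and 74.9 in null hippocampus, and 26.6, 114 and 5.19 in WT and 0 and 23 in null cortex. Jun measured 25.3, 279 and 27.8 CPM in WT and 67.7 and 137 in null hippocampus, and 46.8, 245 and 73.4 in WT and 22.3 and 64.9 in null cortex. All 3 were highest in WT replicate 2 of hippocampus, next in WT replicate 2 of cortex and then in null replicate 2 of hippocampus. Among Sst cells of the hippocampus Fos was likewise highest in WT replicate 2 and next in null replicate 2, at 16.8, 309 and 19.2 CPM in WT and 3.66 and 161 in null. The heat-shock gene Hsp90aa1 measured 1317, 1988 and 1693 CPM in WT and 1985 and 1580.0 in null, and Hspa8 759.7, 1179 and 1381 CPM in WT and 849.7 and 767 in null, with overlap.

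Transcripts of other cell types were counted in the same sums. Oligodendrocyte genes had higher sums in every hippocampal library than in the WT cortical ones. Summed over 9 genes they reached 405, 633 and 273 CPM in WT hippocampus, 271 and 254 in null hippocampus and 195, 91 and 157 in WT cortex. Mbp among them measured 76, 123 and 55.7 CPM in hippocampus and 43, 35.8 and 34.4 in cortex of WT mice. Mog was 0 in all libraries, as the selection requires, and Opalin was 0 in all 3 WT hippocampal libraries. Of 7 tested 0 passed between regions (median log2 difference 1.70, beside -0.02 over all genes). At an unadjusted edgeR p under 0.05, 5 of them were higher in hippocampus, beside 4.23% of all genes. The matching genotype median was -0.96, with 0 past the threshold. The part of this RNA in the regional differences was not tested.

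Among the neuron lists, glutamatergic genes summed to 127, 189.6 and 161 CPM in WT hippocampus, 60.2 and 183 in null hippocampus and 383, 323 and 378 in WT cortex. Camk2a was the most abundant in hippocampus other than in WT replicate 3, where Nrgn equalled it, and Nrgn in WT cortex, and the defining genes Neurod2, Neurod6, Slc17a7 and Tbr1 were at 0 in all 5 hippocampal libraries. Between regions 0 higher and 1 lower of 2 tested passed, the lower one being Nrgn, beside 0.435% higher and 0.0933% lower of all genes (median -1.12). Sst cell genes summed to 1114, 749.9 and 896 CPM in WT and 1902 and 767 in null hippocampus, mostly Cort and the residual Sst that the selection allows, and Chodl was at 0 in all 5. Of 5 tested 0 passed between regions (median 0.97) or genotypes (median 0.04). At an unadjusted edgeR p under 0.05, 3 of them were higher in hippocampus than in cortex, beside 4.23% of all genes. Neurogliaform genes summed to 481, 892 and 1604 CPM in WT and 902 and 1216 in null hippocampus and 849, 1066 and 1018 in WT cortex, led by Npy in all but WT replicate 1, with Ndnf at 0 in all 5 hippocampal libraries. Hapln1, which is also in the perineuronal net list, was the one of 8 tested to pass between regions (median 1.02), and the genotype median was -0.02. At an unadjusted edgeR p under 0.05, 4 of the 8 were higher in hippocampus, beside 4.23% of all genes. CGE interneuron genes summed to 253, 80.8 and 156 CPM in WT and 90.2 and 76.9 in null hippocampus, led by Nr2f2 in WT replicate 1 and by Cnr1 in the other 4 libraries, with Vip and Htr3a at 0 in all 5, and 1 gene could be tested, with no call in either comparison (log2 differences -0.15 for region and -0.64 for genotype). Their part in the differences was not tested.

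Among the glial and vascular lists, oligodendrocyte precursor genes summed to 25.3, 75.3 and 134 CPM in WT hippocampus, 7.52 and 69.3 in null hippocampus and 27.8, 17.6 and 11.5 in WT cortex. Most of the hippocampal sum was C1ql1, the gene shared with the axo-axonic list and the one of 2 tested that passed between regions, beside 0.435% of all genes passing higher, while Pdgfra was at 0 in all 5 hippocampal libraries (medians 2.51 for region and -1.89 for genotype). Astrocyte genes summed to 203, 148 and 217 CPM in WT and 173 and 185 in null hippocampus and 172, 156 and 57.6 in WT cortex. Aldoc, a glycolytic enzyme also present in neurons, was the most abundant in each hippocampal library, at 127, 123 and 184 CPM in WT hippocampus and 60.7, 36.4 and 44.2 in WT cortex (log2 difference 1.66 ± 0.37, edgeR adjusted p = 0.0522), and Aqp4 and Slc1a3 were at 0 in all 5 hippocampal libraries. Of 3 astrocyte genes tested 0 passed for region or genotype (medians -1.18 and -0.71). Of the microglial genes Cx3cr1, P2ry12 and Tmem119 were at 0 in all 5 hippocampal libraries. Vascular genes summed to 0, 11.2 and 0 CPM in WT and 0 and 8.6 in null hippocampus, mainly Rgs5 in null replicate 2, with Cldn5 and Vtn at 0 in all 5, and 0 had enough UMIs to be tested.

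Whether the genotype difference itself depended on region was tested by its interaction in the same fit, which shares the WT hippocampal libraries with the comparisons above. Serotonin receptor Htr2c had the smallest p. It was at 0, 0 and 0 CPM in WT and 15 and 27.8 in null hippocampus, but at 24, 26.4 and 28.4 in WT and 0 and 6.76 in null cortex. WT cells thus had UMIs of it in cortex and none in hippocampus, where the floors above still allow some. In null replicate 2 its level was higher in hippocampus than in cortex, and in null replicate 1 the counts are too low to order the regions (edgeR adjusted p = 0.209). The count past the threshold was 0 in edgeR (0% in either direction), 183 at an unadjusted p under 0.05 (1.9%, 1.14% higher and 0.756% lower) and 0 in DESeq2.

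The other genes with the smallest p, none past the threshold, include Nppc, Lgals1, Calb1 and Kitl on the higher side. Nppc, the precursor of C-type natriuretic peptide, measured 0, 11.2 and 0 CPM in WT and 30.1 and 42 in null hippocampus, and 79.7, 36.4 and 61.7 in WT and 11.1 and 31.1 in null cortex. Null was above WT in hippocampus and below it in cortex (log2 difference of differences 3.71 ± 0.96, edgeR adjusted p = 1). Lgals1, galectin-1, had the same order, at 177, 117 and 139 CPM in WT and 248 and 224 in null hippocampus, and 403, 334 and 277 in WT and 162 and 147 in null cortex (1.95 ± 0.52). Calb1 measured 87.3, 184 and 75.9 CPM in WT and 33.4 and 164 in null cortex (3.26 ± 0.93), and Kitl 13.9, 19.5 and 38.2 CPM in WT and 22.3 and 10.8 in null cortex, beside the hippocampal values above. On the lower side, Brinp3 measured 0, 33.5 and 61.3 CPM in WT and 30.1 and 15.2 in null hippocampus, and 11.4, 9.41 and 9.01 in WT and 5.57 and 27 in null cortex (-2.65 ± 0.80). Surf6, a nucleolar protein gene, had a difference of -3.56 ± 1.07, and the hydrolase gene Abhd2 of -2.57 ± 0.78. Neb, nebulin, measured 0, 19.5 and 27.8 CPM in WT and 0 and 4.05 in null hippocampus, and 1.26, 0.627 and 0.819 in WT and 0 and 8.11 in null cortex (-5.17 ± 1.63). Pde3a measured 37.6 and 23.8 CPM in null hippocampus and 0 and 8.11 in null cortex (-4.74 ± 1.46). For Neb and Pde3a cortical null replicate 2 set the sign, and without it only cortical null replicate 1 is left, where both genes are at 0, so that the fitted size depends on the prior count. For Grin1 the interaction was -0.98 ± 0.66 (edgeR adjusted p = 1), with 50.2 and 29.7 CPM in null cortex, low there too.

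By list, 0 genes passed the interaction anywhere. Its medians for the larger lists were -0.02 for potassium channel genes, -0.11 for release genes, 0.03 for MGE transcription factors, -0.16 for AMPA and kainate genes, -0.21 for GABA receptor genes and -0.18 for adhesion genes, beside 0.03 over all genes. Activity-regulated genes had 1.35 over 13 tested.

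Whether the genotype difference was the same in Pvalb cells as in Sst cells, the other large MGE class in these libraries, was tested with library as a block, on the sums of WT replicates 2 and 3 and null replicate 2. Calb1, Cartpt and Cort were among the genes higher in null Pvalb cells relative to Sst cells, and Fabp5 and Rgs10 among those lower. 11 of 11275 genes passed (0.0976%), 6 higher (0.0532%) and 5 lower (0.0443%), and in 10 (0.0887%) the ratio of Pvalb to Sst cells in the null library lay outside that of the WT libraries. The test had 1 residual degree of freedom and rested on null replicate 2 alone, since no other null library reached the minimum of cells. The spread between null libraries is therefore not in it. For Calb1 and Cartpt the fitted SE was also below the spread between WT replicates 2 and 3, so their p-values do not measure that spread. DESeq2 called 0, and 483 genes (4.28%) had an unadjusted edgeR p under 0.05, 2.99% higher and 1.29% lower.

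Calb1 measured 456, 117 and 11.1 CPM in WT and 218 and 685 in null Pvalb cells, and 405, 376 and 305 in WT and 443 and 666 in null Sst cells. Null replicate 2 was the highest library in both classes, but WT varied far more in Pvalb cells. The difference between the classes' log2 changes in edgeR was 2.32, with a fitted SE of 0.26. Pvalb against Sst cells stood at 117 against 376 CPM in WT replicate 2 and 11.1 against 305 in WT replicate 3. These ratios lie further apart on the log2 scale than the SE, which thus does not measure the spread between WT libraries. Replicate 1, outside the test, went the other way for Calb1, with null below WT in Pvalb cells and above it in Sst cells. Cartpt measured 50.6, 119.9 and 312 CPM in WT and 684 and 325 in null Pvalb cells, and 112, 35.8 and 310.3 in WT and 134 and 55.9 in null Sst cells (2.02 ± 0.27, adjusted p = 9.6e-10). Both null libraries of Pvalb cells were above all WT libraries for Cartpt, while in Sst cells null lay within the WT range. Cort encodes the peptide cortistatin. Cort measured 608, 178 and 351 CPM in WT and 1023 and 508 in null Pvalb cells, and 764, 504 and 938 in WT and 699 and 637 in null Sst cells (1.22 ± 0.22, adjusted p = 1.1e-04). Cck rose relative to Sst cells by 1.13 ± 0.27 (adjusted p = 0.0327). Cck measured 0, 452 and 284 CPM in WT and 429 and 498 in null Pvalb cells, and 49.5, 22 and 90.1 in WT and 43.9 and 34.5 in null Sst cells, and the genotypes overlapped in both classes. Cort overlapped too once replicate 1 is counted. The within-replicate log2 differences of Pvalb cells for replicates 1 and 2 were -1.06 and 2.54 for Calb1, 3.73 and 1.43 for Cartpt and 0.75 and 1.51 for Cort. For Cck the value was 0.14 in replicate 2, and none is given for replicate 1, where WT had no Cck UMI in 6 cells.

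The other higher genes were Cemip and Kitl. Cemip, which helps to break down hyaluronan, measured 101, 36.2 and 145 CPM in WT and 120.3 and 173 in null Pvalb cells, and 13.3, 5.7 and 30.5 in WT and 13.4 and 10.7 in null Sst cells (1.76 ± 0.41, edgeR adjusted p = 0.0299). Kitl was at 10.6, 10.6 and 7.92 CPM in WT and 4.88 and 7.46 in null Sst cells, against 0 in all WT libraries of Pvalb cells, so no fold is given (adjusted p = 0.0461). Null Pvalb cells overlapped the WT libraries for Cemip when replicate 1 is counted.

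Lower relative to Sst cells were Fabp5, Rgs10, Synpr, Glul and Ramp3. Fabp5 encodes a fatty-acid carrier. Fabp5 measured 253, 722 and 1581 CPM in WT and 196 and 403 in null Pvalb cells, and 128, 348 and 423 in WT and 174 and 308 in null Sst cells (-1.02 ± 0.20, edgeR adjusted p = 0.00117). Null replicate 1 was the lowest library of Pvalb cells, null replicate 2 lay between WT replicates 1 and 2, and in Sst cells both null libraries lay within the WT range. Rgs10 measured 279, 248 and 568 CPM in WT and 82.7 and 241 in null Pvalb cells, and 77.8, 60.2 and 121 in WT and 139 and 134 in null Sst cells (-1.22 ± 0.26, adjusted p = 0.00575). For Rgs10 both null libraries of Pvalb cells lay below all WT libraries and both null libraries of Sst cells above theirs. Glul encodes glutamine synthetase. Glul measured 101, 112 and 61.3 CPM in WT and 60.2 and 51.6 in null Pvalb cells, and 80.5, 36.6 and 37 in WT and 127 and 69.7 in null Sst cells (-1.62 ± 0.38, adjusted p = 0.0299). Both null libraries of Pvalb cells were below the WT libraries there. Synpr, a synaptic vesicle protein, measured 152, 94.8 and 273 CPM in WT and 82.7 and 106 in null Pvalb cells, and 848, 453 and 717 in WT and 687 and 828 in null Sst cells (-1.08 ± 0.25, adjusted p = 0.0299). Ramp3, a receptor accessory protein, measured 25.3, 19.5 and 161 CPM in WT and 22.6 and 31.4 in null Pvalb cells, and 23, 6.51 and 20.7 in WT and 51.2 and 21.9 in null Sst cells (-2.06 ± 0.50, adjusted p = 0.042). WT replicate 3 alone set the high end for Ramp3 in Pvalb cells. Grin1 itself showed a class difference of -0.41 ± 0.38 (edgeR adjusted p = 1), with 123, 186 and 153 CPM in WT and 20.7 and 24 in null Sst cells, low in null in both classes. With no upper limit on genes per cell, chosen after seeing the data, it was 0.005, so neither its size nor its sign is settled.

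The class calls depended on the settings. All 11 were lost with DESeq2. Calls were also lost for Cemip, Cck and Kitl with library-size scaling, for Cemip, Cck, Kitl, Synpr, Glul and Ramp3 with no low-count filter, for Kitl and Ramp3 with the stricter cell filter, for Ramp3 without Scrublet doublets and for Cck with no upper limit on genes per cell, the last chosen after seeing the data. With no minimum of cells, which adds replicate 1 of both genotypes and was also chosen after seeing the data, Cemip and Synpr did not pass (adjusted p = 0.0688 and 0.211) and the other 9 did, among 15 genes in all. The adjusted p over all alternatives ran from 1.5e-17 to 0.0917 for Calb1, 3.2e-10 to 1 for Cartpt, 2.1e-12 to 1 for Cort, 0.0167 to 1 for Cemip, 3.3e-04 to 1 for Cck, 0.0453 to 1 for Kitl, 1.8e-04 to 1 for Fabp5, 2.1e-05 to 1 for Rgs10, 0.00811 to 1 for Synpr, 0.0128 to 1 for Glul and 0.0128 to 1 for Ramp3.

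**Figure D4:**
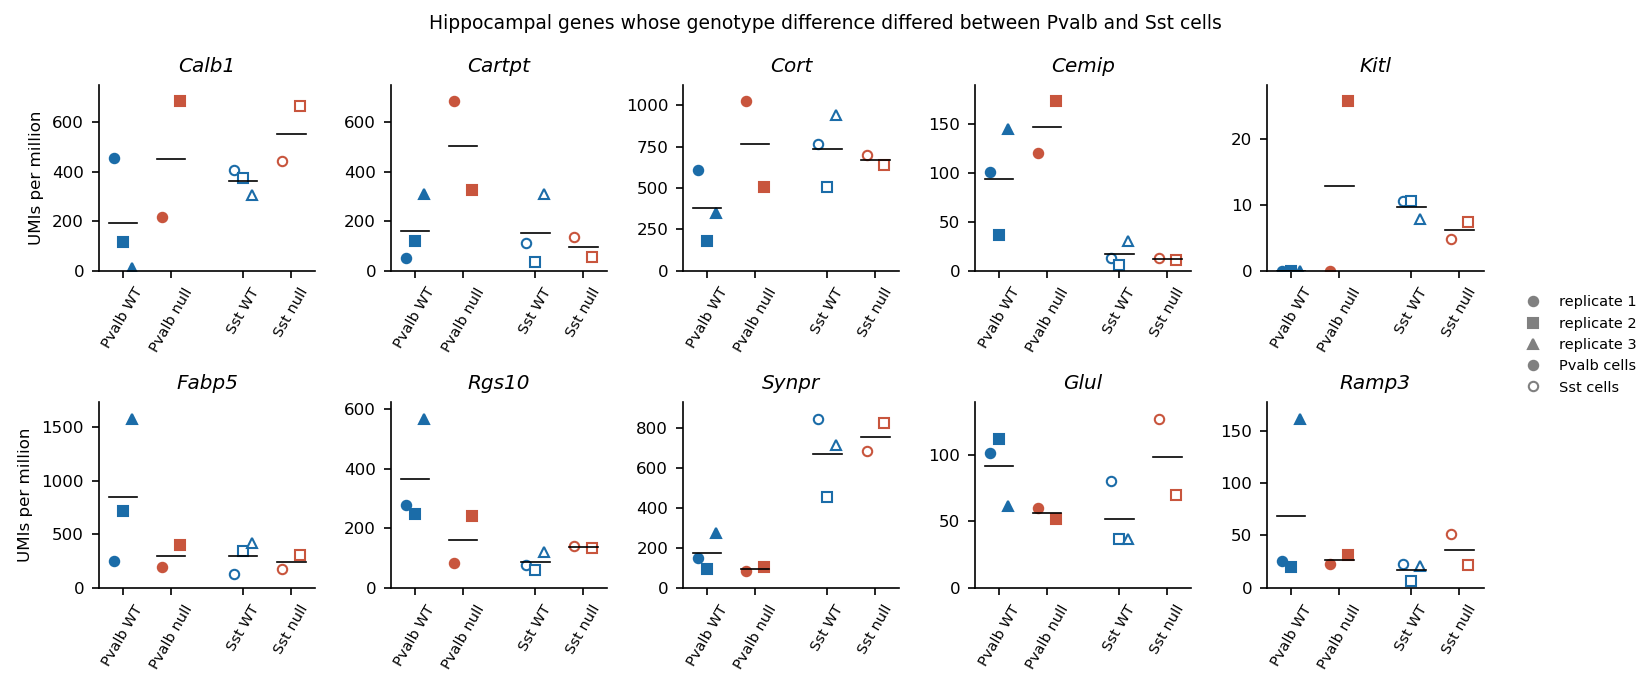
CPM of 10 genes whose genotype difference passed the test between Pvalb and Sst cells of the hippocampus, 1 point per library, filled for Pvalb and open for Sst cells, with shapes for replicates and lines at group means. Calb1, Cartpt, Cort, Cemip and Kitl are higher in null replicate 2 than in WT replicates 2 and 3 in Pvalb cells, and the lower genes Fabp5, Rgs10 and Glul are lower in it.

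Within the lists the class test called Calb1 among 11 calcium-binding genes (median -0.14), Cck and Cort among 10 peptide genes (median 0.44) and Cort among the Sst cell genes, beside 0.0532% of all genes passing higher and a median of 0.08 over all genes. It called 0 of 19 potassium channel genes (0.29), 0 of 13 sodium channel genes (0.39), 0 of 5 NMDA receptor genes (-0.41), 0 of 23 AMPA and kainate genes (-0.15) and 0 of 35 adhesion genes (0.08) in edgeR. Kcnc1, Syt2 and Tac1 had class differences of 0.21 ± 0.20, 0.79 ± 0.66 and 0.62 ± 0.21, none past the threshold (adjusted p = 1, 1 and 0.442). For Kcnc1 the sign turned with no minimum of cells per sum.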

How the data were processed

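The authors deposited UMI counts per gene and cell in 4 matrices, made with Cell Ranger against mm10. Methods and labels give version 2.1.1 and the matrix headers 3.0.2. Barcode suffixes gave the libraries, numbered as in the methods by barcode counts and taken as paired by that number. WT hippocampus and cortex of 1 number correlated across 8275 genes at 0.223, 0.371 and 0.162 (Pearson, after centring, a description). WT and null hippocampus of 1 number correlated less, at 0.07 and 0.096 in replicates 1 and 2. The replicate block and within-replicate values for genotype thus rest on a weaker pairing. Members and gene lists were chosen with earlier results of these data known. Sums per library of at least 10 cells were fitted with edgeR 4.0.16 (quasi-likelihood, TMM scaling, filterByExpr, 4 groups in 1 fit; R 4.3.3, limma 3.58.1), with Benjamini-Hochberg adjustment over all genes tested and a threshold of 0.05. DESeq2 1.42.0 was an alternative. The 8 genes of the selection were not tested. Sst cells held Sst of at least 3000 CPM and 2 UMIs, and Lamp5 cells at least 2 Lamp5 UMIs with Sst under that level and fewer than 2 Pvalb UMIs. Named genes were the markers and Grin1, in each comparison up to 12 per direction with the smallest p among non-overlapping genes that passed (5 where fewer passed), and from each list those that passed and up to 4 with the highest level. Within-replicate values add 1 CPM. Positions are GENCODE vM21 on GRCm38, matched by gene ID. Shares used Python 3.11.15 with numpy 2.4.6, scipy 1.17.1 and pandas 2.3.3, and doublets scanpy 1.11.5. The tests were tried on simulated data. Alternatives changed the threshold, tool, scaling, filters, minimum of cells, block and libraries used.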

Additional observations from a re-analysis of the deposited data

Results flagged for a closer look

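In the hippocampus edgeR called 11 genes whose genotype difference in Pvalb cells differed from that in Sst cells, by the test of the difference itself, and DESeq2 called 0 of them. The test set 1 null library against 2 WT libraries with 1 residual degree of freedom, so the spread between null libraries is not in it. For Calb1 and Cartpt the ratios of Pvalb to Sst cells in the 2 WT libraries also lay further apart than the fitted SE. The adjusted p-values thus do not measure the spread between WT libraries of these genes either. With no minimum of cells, which adds replicate 1 and was chosen after seeing the data, 9 of the 11 passed and Cemip and Synpr did not. The log2 change in Pvalb cells minus that in Sst cells was 2.32 for Calb1, 2.02 for Cartpt, 1.22 for Cort, 1.76 for Cemip and 1.13 for Cck. It was -1.02 for Fabp5, -1.22 for Rgs10, -1.08 for Synpr, -1.62 for Glul and -2.06 for Ramp3. Kitl had a fitted value of 9.45, which depends on the prior count because Kitl is at 0 in the WT libraries of Pvalb cells. In replicate 1, outside the test, Calb1 went the other way, at 456 CPM in WT and 218 in null Pvalb cells and 405 and 443 in Sst cells. The cause of the 11 was not tested.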

How the results depend on the processing

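Depth and cell number limit these results: 1 null library carries the genotype tests, and WT replicate 2 and null replicate 2 hold most cells. The genotype count of 0 became 1 with DESeq2 (Grin1), 20 with no filter on low counts, 5 with the replicate block, 7 with only the groups compared, 9 with a Pvalb minimum of 1000 CPM and 1 (Grin1) with no minimum of cells per sum, the last chosen after seeing the data. Leaving out a library gave 0 each time. The regional count of 51 became 21 at an adjusted p of 0.01 with a change of over 0.1 on the natural log scale, 161 with no low-count filter, 101 with at least 20 cells per sum, 107 with the higher Pvalb minimum and 85 with no minimum of cells (chosen after seeing the data). Leaving out a library gave 10 to 101, and pairing by replicate block 61. The interaction count of 0 became 4 with no low-count filter (Nppc, Calb1, Kitl and Htr2c) and stayed 0 to 0 on leaving out a library. The class count of 11 became 5 at the stricter threshold, 0 with DESeq2, 5 with no low-count filter and 15 with no minimum of cells (chosen after seeing the data). On leaving out a library the interactions ran from -6.05 to 1.17 for Pde3a and from -5.59 to 0.73 for Neb, each reversed without cortical null replicate 2, where both are at 0 in the library left and the value depends on the prior count. All 448 alternative values of 28 of the 51 regional genes, those named by the rule in processing, kept their direction, 383 of them past the threshold, and so did all 77 of the class test, 51 past it. Shares kept their sign but moved, the genotype difference to 0.591 points with the higher Pvalb minimum, the regional one to -15.1 after thinning and -6.93 with all cells as denominator, and they ran from 0.918 to 4.39 points for genotype and from -13.1 to -9.65 for region on leaving out a library. With no low-count filter the median of all genes was -0.26 for region and 0.47 for the interaction. The cause was not tested. Not fitted were the class test with at least 20 cells, with the higher Pvalb minimum, or without any of its libraries, the genotype test and interaction without hippocampal null replicate 2, and the interaction with only the groups compared.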
